A study of Homo sapiens with 4 samples.

Results

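The 33 genes described here make, regulate or export cholesterol and fatty acids, and nearly all are known targets or partners of the sterol regulatory element-binding proteins (SREBPs). They were chosen by name for their place in the pathway and not by their values, although earlier results of these data were known. All 33 were on the array and passed the filter on dim probes, among 16184 gene names tested, and they were represented by 44 probes, and each gene is given by its tested probe of highest mean signal unless stated otherwise. The transcripts were measured in GIST-T1, an established cell line derived from a gastrointestinal stromal tumor (GIST) that carries a gain-of-function mutation of KIT, 48 h after 3000000 cells per transfection received 100 pmol of RNA by nucleofection. In the miR-34a mimic group (n = 2 arrays) that RNA was a synthetic mirVana mimic of miR-34a, and in the negative control group (n = 2 arrays) it was mirVana Negative Control #1. Total RNA (100 ng) was labelled in 1 colour and hybridised to Agilent arrays. The comparison asks which transcripts differ in level when miR-34a is supplied to these cells. Untransfected cells were not analysed here, so that a response to nucleofection itself, which both groups received, cannot be seen. The labels do not say whether the replicates were separate cultures, and p-values then measure only the spread between these arrays, which may be technical.

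Cells sense sterols in the membrane of the endoplasmic reticulum. When sterols are scarce, the escort protein SCAP carries SREBP to the Golgi, where it is cut to release a transcription factor that raises the genes for cholesterol synthesis (mainly SREBP-2) and fatty acid synthesis (mainly SREBP-1), and when sterols are plentiful, INSIG proteins hold SCAP back. Oxysterols, made from cholesterol, activate the liver X receptors (LXR), which raise the efflux pumps ABCA1 and ABCG1. These steps are background and were not measured here.

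The mature strand of the miRNA that was supplied is shown because its seed, bases 2 to 8 in capitals, is what pairs with target transcripts. The sequence is that of RefSeq, at chr1:9151735-9151756 on the minus strand of GRCh38.p14.
hsa-miR-34a-5p: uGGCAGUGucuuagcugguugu
The DNA letters that match this seed, CACTGCC, were present in 0 of the 44 probes of the 33 genes and in 98 of 21474 tested probes (0.456%). A probe covers only a short stretch of a transcript, and the rest of the transcripts was not searched.

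The labelled cell type was checked against its markers. KIT, ANO1, ETV1, CD34, PRKCQ and PDGFRA were well above background on all 4 arrays. Several of these differed between the groups: the log2 difference, mimic minus control, was -1.53 for PDGFRA, -0.70 for KIT and 0.37 for CD34 (limma adjusted p with a variance trend 0.00472, 0.00705 and 0.0407; 0.0948, 0.0948 and 0.133 without it), and between -0.23 and -0.06 for the other 3. In contrast, CDH1, PECAM1, MYH11, ALB and TTR were not well above background on any array. DES, ACTG2, KRT8, EPCAM and CD14 were above background on all 4 arrays, PTPRC on 2, and CDH5 on both control arrays but neither mimic array (-3.57 and -3.64 in the mimic, -2.70 and -2.57 in the control). Linear levels, relative to the 75th percentile, were summed over all 12 markers of other cell types. The sum was 13.2 to 13.7 in the mimic and 14.7 to 14.8 in the control. KRT8 made up most of it, and the markers went both ways. The log2 difference was -0.97 for CDH5, -0.39 for DES, -0.18 for ACTG2 and -0.10 for KRT8, but 0.41 for EPCAM and 0.48 for CD14. The part of these markers in the results was not tested. The arrays detected 41.8% to 45.2% of their 50599 probes and 0 spots were saturated. All values below are log2 signal relative to the 75th percentile of the same array, and levels of different genes are not compared because they come from different probes. In bulk RNA, fewer cells of a type and less RNA per cell cannot be told apart.

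As a set, the 33 genes differed little between the mimic and the control. The median log2 difference, mimic minus control, was 0.13 over the 33 genes against -0.01 over all genes tested, and the middle 50% of the members lay between -0.02 and 0.24 against -0.17 and 0.14 for all genes. The difference was above 0 for 24 of the 33 genes, compared with 48.7% of all genes. By limma, 0 of the 33 passed an adjusted p of 0.05, as did 0 of all 16184 genes (0% called). An unadjusted limma p under 0.05 was found for 10 of the 33, against a background of 24.9%. Of these, 8 were higher (13% of all genes) and 2 lower (11.9% of all genes). With a variance trend in limma, 3 genes passed the adjusted threshold, all of them higher in the mimic (TM7SF2, LSS and SCD), where 4.28% of all genes were called higher and 3.95% lower. For 19 genes both mimic arrays lay above both control arrays (31.3% of all genes), for 5 both lay below (30.6%), and for 9 the groups overlapped.

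The differences were small relative to the 1.5-fold threshold used in the study. For 24 genes the 2 groups were within 1.2-fold of each other, 7 were higher and 2 lower by more than that. For 27 the 95% interval of the difference lay wholly within 1.5-fold. The median absolute log2 difference was 0.17 over the 33 genes and 0.15 over all genes tested, so that small differences were not particular to this list. By fitted value 1 of the 33, SC5DL, was past 1.5-fold in the lower direction (background 4.79%), but it was not well above background on either mimic array. With its mimic signal held at or above the lowest detected signal of each array, SC5DL was 1.42-fold lower, which does not reach that threshold. None of the 33 were higher by as much (0, background 1.96%). The median gap between replicate arrays was 0.08 in the mimic and 0.06 in the control on the log2 scale. It exceeded 0.3 in the mimic for 3 genes, ACAT2, EBP and SC5DL, so that the values of those 3 are the least precise.

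**Figure D1:**
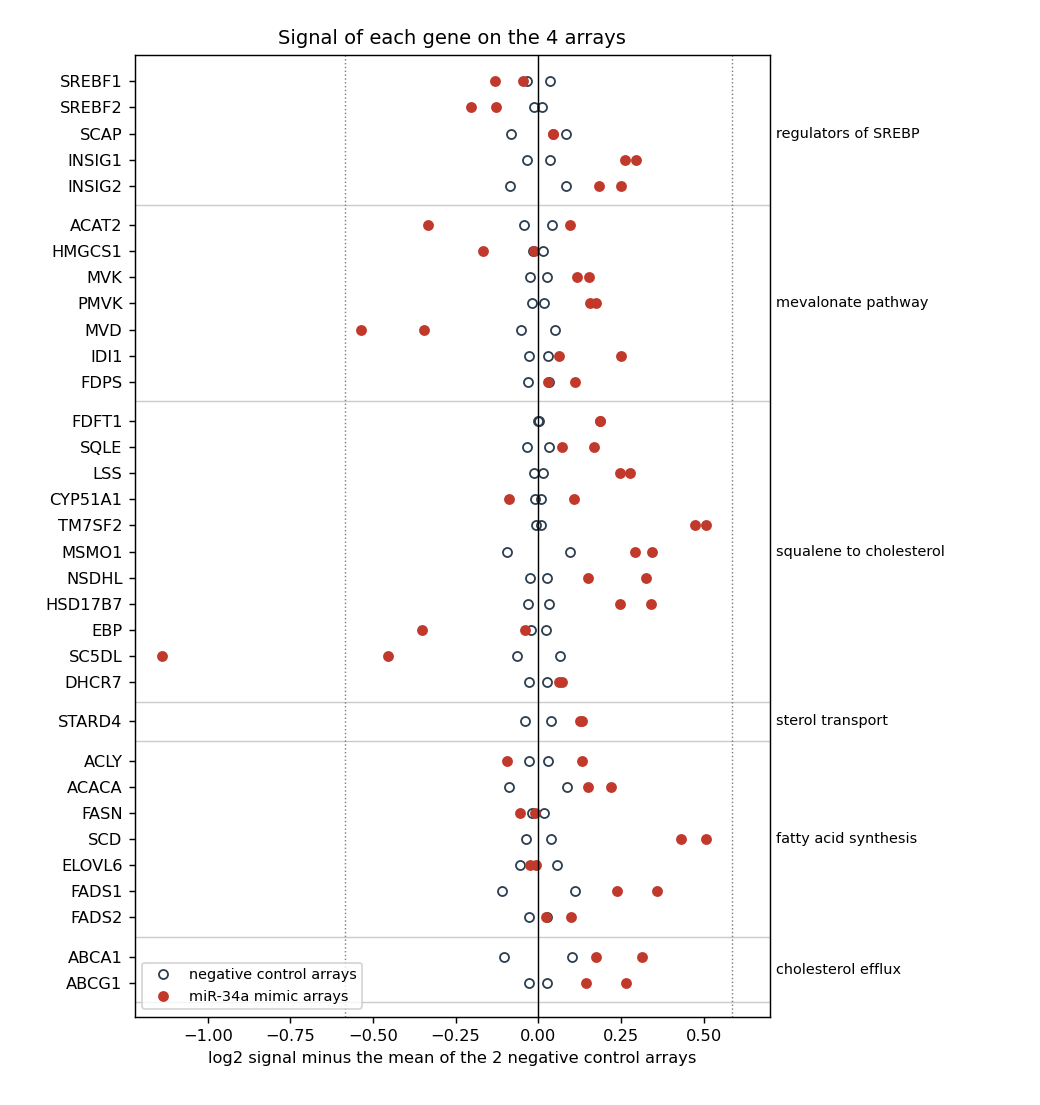
Each point is 1 array and gives the log2 signal of a gene minus the mean of its 2 negative control arrays (horizontal axis), with the 33 genes listed by role on the vertical axis and dotted lines at 1.5-fold. TM7SF2 and SCD stand to the right with both mimic arrays clear of both control arrays, MVD and SC5DL stand to the left, and most genes lie close to 0.

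**Figure D2:**
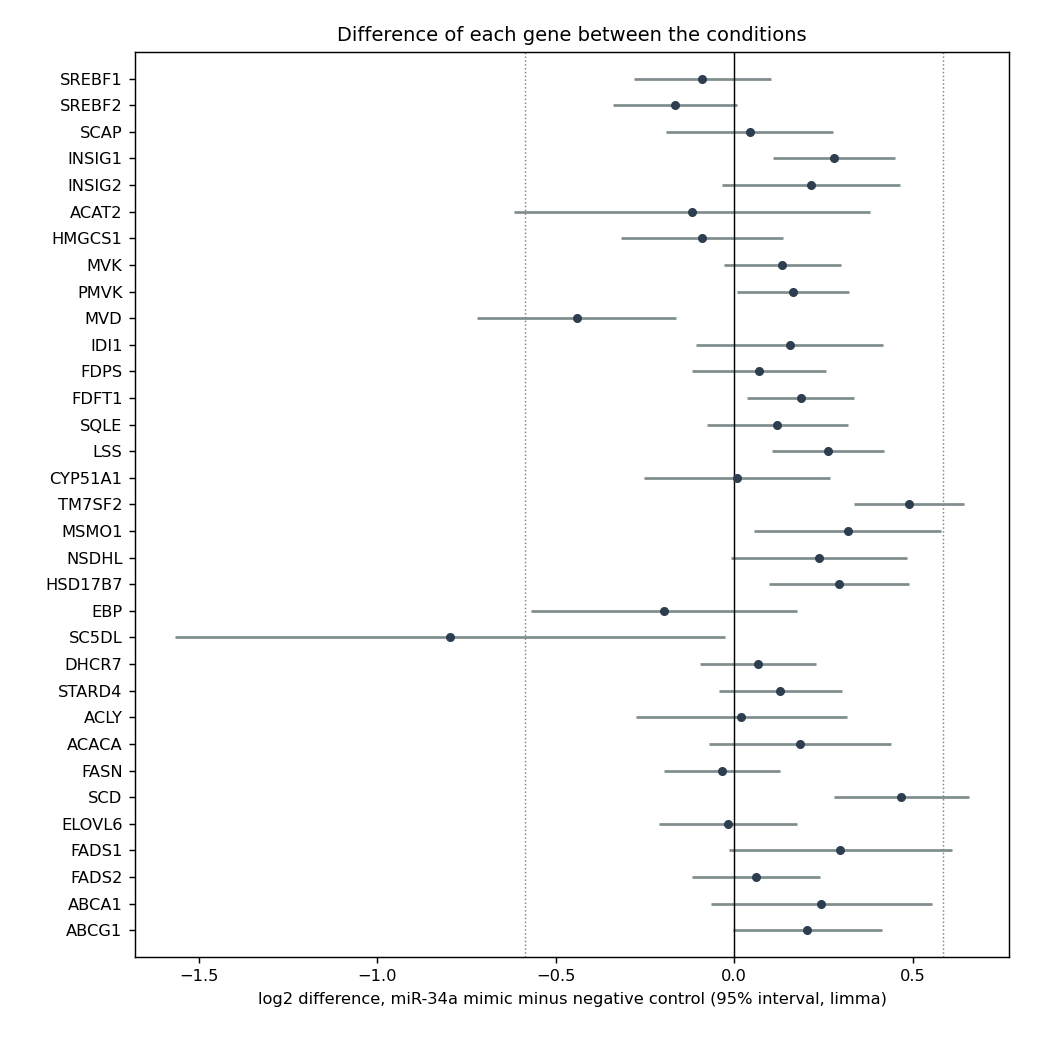
Points are log2 differences (mimic minus negative control, n = 2 arrays each) of the 33 genes by role and bars are 95% confidence intervals from limma. TM7SF2 (0.49) and SCD (0.47) are the highest values, SC5DL (-0.80, not well above background in the mimic) and MVD (-0.44) the lowest, and the interval of SC5DL is the widest.

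Among the regulators, 0 of 5 passed the adjusted threshold in limma and 1, INSIG1, had an unadjusted p under 0.05. Of all genes 24.9% did, and a count of 1 in 5 cannot be set apart from that share. SREBF1, which encodes SREBP-1, read 4.37 and 4.46 in the mimic against 4.54 and 4.47 in the control, a difference of -0.09 ± 0.07 (SE; limma adjusted p = 0.451). SREBF2, which encodes SREBP-2, read 1.79 and 1.87 against 2.01 and 1.99, a difference of -0.17 ± 0.06 (limma adjusted p = 0.217). On these probes the mimic arrays of both genes lay below the control arrays, narrowly for SREBF1. The other tested probe of SREBF1 had the opposite sign (0.20), with 0.52 and 0.91 in the mimic and 0.52 and 0.51 in the control, so that this gene's direction depends on the probe.

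SCAP, the escort of SREBP, read 3.05 on both mimic arrays and 3.09 and 2.92 on the control arrays (difference 0.04 ± 0.08), and the groups overlapped. INSIG1, which retains SCAP and is itself an SREBP target, read 1.42 and 1.45 in the mimic and 1.19 and 1.12 in the control at chr7:155101843-155101902 (hg19, the build of the array's annotation), a difference of 0.28 ± 0.06 or 21.4% (limma adjusted p = 0.127). Both mimic arrays were above both control arrays by more than the replicates of either group differed. INSIG2, the second retention protein, had the same order of arrays (-0.70 and -0.63 against -0.80 and -0.97, difference 0.22 ± 0.09), although its other tested probe differed by only 0.06. The median of the 5 regulators was 0.04.

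In the mevalonate pathway, which builds farnesyl diphosphate from acetyl-CoA, 3 of 7 genes had both mimic arrays above the control arrays (31.3% of all genes), 1 had both below (30.6%) and 3 overlapped, counts too small to set apart from those shares, with a median difference of 0.07. MVD, the decarboxylase that makes isopentenyl diphosphate, was the gene that was lower. Its probe at chr16:88718985-88719738 (hg19) read 0.15 and 0.34 in the mimic and 0.74 and 0.63 in the control, a difference of -0.44 ± 0.10, a level 1.36-fold lower (limma adjusted p = 0.130). The 2 kinases that act just before it in the pathway had mimic arrays above the controls by small amounts. MVK, mevalonate kinase, read 5.16 and 5.13 against 4.99 and 5.04 (0.14 ± 0.06). PMVK, phosphomevalonate kinase, read 3.68 and 3.66 against 3.52 and 3.49 (0.16 ± 0.05, limma adjusted p = 0.194).

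IDI1, the isomerase that follows MVD, read 1.83 and 2.02 against 1.74 and 1.79 (0.16 ± 0.09), with the mimic arrays above the controls. HMGCS1, the synthase that makes HMG-CoA and a classical SREBP-2 target, read 0.44 and 0.28 against 0.44 and 0.46 (-0.09 ± 0.08). ACAT2, the cytosolic thiolase at the start of the pathway, read 4.16 and 3.73 against 4.11 and 4.02 (-0.12 ± 0.17). In ACAT2 the 2 mimic arrays were farther apart than the groups were, and in HMGCS1 the first mimic array stood at the level of the controls. FDPS, which makes farnesyl diphosphate, read 4.33 and 4.41 against 4.33 and 4.27 (0.07 ± 0.06), also with overlap.

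The 11 genes from squalene synthesis to cholesterol had the highest median among the roles with more than 2 genes, 0.19. Of these, 9 were above 0 (48.7% of all genes), 8 had both mimic arrays above both control arrays (31.3% of all genes) and 2 had both below (30.6%). TM7SF2, a sterol C14 reductase, had the widest gap between the groups in absolute terms among the 33 genes: it read 0.60 and 0.63 in the mimic against 0.13 and 0.11 in the control at chr11:64880991-64881050 (hg19). The difference was 0.49 ± 0.05 (95% interval 0.34 to 0.65), a level 40.5% higher (limma adjusted p = 0.0948, and 0.0251 with the variance trend). LSS, lanosterol synthase, which closes the sterol rings, read 2.14 and 2.17 against 1.90 and 1.88 at chr21:47609299-47609358 (hg19), a difference of 0.26 ± 0.05 (limma adjusted p = 0.124, and 0.0437 with the variance trend). In both genes the replicates of each group lay close together relative to the difference between the groups.

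FDFT1, squalene synthase, which commits farnesyl diphosphate to sterols, read 3.37 on both mimic arrays and 3.18 on both control arrays (0.19 ± 0.05, limma adjusted p = 0.163), and its replicates lay closer together relative to the gap between the groups than those of TM7SF2. SQLE, squalene epoxidase, read 3.81 and 3.90 against 3.77 and 3.70 (0.12 ± 0.07). CYP51A1, the sterol C14 demethylase that acts on lanosterol, read 2.77 and 2.96 against 2.87 and 2.85 (0.01 ± 0.09). Of these 3 enzymes that neighbour LSS, FDFT1 and SQLE had mimic arrays above the controls, whereas in CYP51A1 the 2 mimic arrays lay on either side of the controls.

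The genes for removal of the C4 methyl groups of the sterol, MSMO1, NSDHL and HSD17B7, were all higher in both mimic arrays, as were 31.3% of all genes. MSMO1, the C4 methyl oxidase, read -0.49 and -0.44 against -0.69 and -0.88 (0.32 ± 0.09). NSDHL, the C4 decarboxylase, read 3.66 and 3.49 against 3.36 and 3.31 (0.24 ± 0.09). HSD17B7, the 3-keto reductase of the same complex, read -0.17 and -0.27 against -0.55 and -0.48 (0.29 ± 0.07). None of the 3 passed the adjusted threshold, with limma adjusted p of 0.167, 0.215 and 0.135 in that order. For HSD17B7 the other tested probes differed by 0.05 and 0.15, and a pseudogene of near-identical sequence, HSD17B7P2, may share its signal, so that its value is uncertain.

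Of the last steps, DHCR7, the reductase that yields cholesterol, read 4.67 and 4.68 against 4.63 and 4.58 (0.07 ± 0.06), with mimic arrays just above the controls. EBP, the sterol isomerase, read 5.87 and 5.56 against 5.93 and 5.89 (-0.20 ± 0.13, limma adjusted p = 0.404). In EBP the 2 mimic arrays were farther apart than the groups were, and the first lay close to the controls. SC5DL, the sterol C5 desaturase whose current symbol is SC5D, read -3.89 and -3.21 in the mimic and -2.69 and -2.82 in the control (chr11:121183280-121183339, hg19). It was well above background on both control arrays and not well above background on either mimic array, so that its level in the mimic is uncertain. With the mimic signal held at or above the lowest signal well above background on each array, the level was 1.42-fold lower. That is not a strict bound, because the second mimic array read just above that lowest signal without being well above background itself. The fitted difference of -0.80 ± 0.27 had an adjusted p of 0.198 in limma, and with normexp background correction it was -0.18.

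STARD4, which moves cholesterol between membranes in the cytosol, read 0.22 on both mimic arrays and 0.13 and 0.05 on the control arrays (0.13 ± 0.06). The mimic arrays lay above the controls by about as much as the control replicates differed, and the limma adjusted p was 0.286.

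Among the 7 genes of fatty acid synthesis and desaturation, 3 core enzymes had overlapping groups and SCD stood out. FASN, fatty acid synthase, read 3.90 and 3.85 in the mimic and 3.93 and 3.89 in the control (-0.03 ± 0.06). ACLY, which supplies cytosolic acetyl-CoA from citrate, read 1.65 and 1.42 against 1.48 and 1.54 (0.02 ± 0.10). ELOVL6, which elongates palmitate, read 1.87 and 1.89 against 1.84 and 1.95 (-0.02 ± 0.07), and its other tested probe gave -0.21. All 3 had overlapping groups and 95% intervals that lay within 1.5-fold. ACACA, acetyl-CoA carboxylase, which makes the malonyl-CoA used by FASN, read 1.70 and 1.77 against 1.64 and 1.46 (0.19 ± 0.09), with 0.04 on its other tested probe.

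SCD, stearoyl-CoA desaturase, which makes oleate, had the second-highest difference of the 33 genes. It read 0.22 and 0.29 in the mimic against -0.25 and -0.17 in the control at chr10:102123917-102123976 (hg19), a difference of 0.47 ± 0.07 (95% interval 0.28 to 0.66), a level 38.4% higher (limma adjusted p = 0.0954, and 0.0397 with the variance trend). The gap between the groups was several times the gap between replicates. FADS1, the delta-5 desaturase of polyunsaturated fatty acids, read -0.10 and 0.02 against -0.23 and -0.45 (0.30 ± 0.11, limma adjusted p = 0.218), with the mimic arrays higher and the control arrays spread. FADS2, the delta-6 desaturase beside it in the genome, read 3.46 and 3.39 against 3.39 and 3.34 (0.06 ± 0.06), with overlap.

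Both cholesterol efflux pumps, known as targets of LXR, were higher in both mimic arrays without passing the test. This order was seen in 31.3% of all genes. ABCA1, which loads cholesterol onto lipid-poor apolipoprotein A-I, read -0.32 and -0.18 against -0.60 and -0.39 (0.24 ± 0.11, limma adjusted p = 0.269). ABCG1, which loads it onto HDL, read -0.53 and -0.40 against -0.70 and -0.64 (0.21 ± 0.07, limma adjusted p = 0.209).

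**Figure D3:**
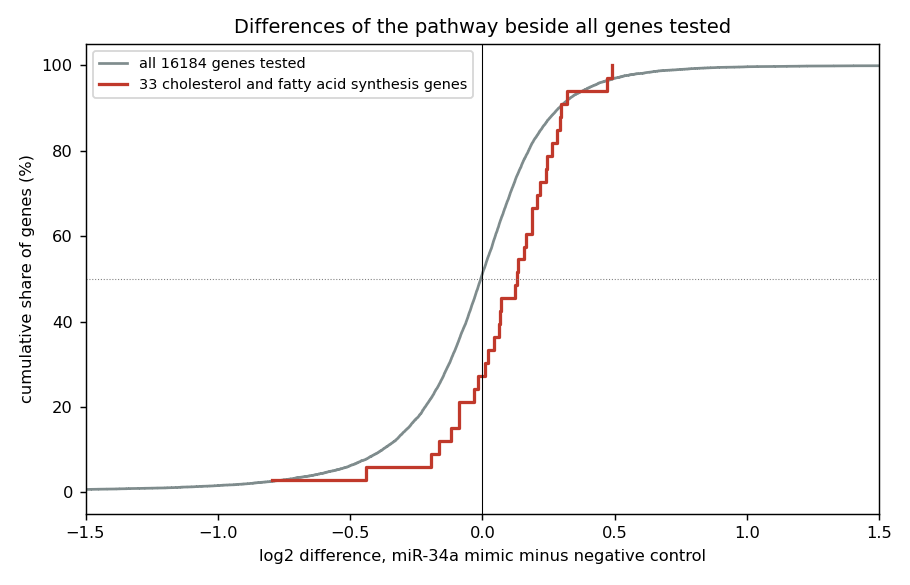
Cumulative share of genes (vertical axis) by log2 difference, mimic minus negative control (horizontal axis), for the 33 genes and for all 16184 genes tested. The curve of the 33 genes crosses the middle at 0.13 and that of all genes at -0.01.

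Other genes of the pathway, from a list of 61, were compared in the same way, and 52 of them passed the filter on dim probes. Their median difference was 0.05, with 31 above 0 and 21 below. By limma, 0 passed the adjusted threshold and 22 had an unadjusted p under 0.05, 14 higher (13% of all genes) and 8 lower (11.9% of all genes). With the variance trend 6 were called higher (NPC2, LIPA, ACSS2, ACACB, MCAT and ELOVL5), against 4.28% of all genes, and 2 lower (ERLIN1 and SCD5), against 3.95%, so that the lower calls were near the background. These include ACSS2, which makes acetyl-CoA from acetate, with a difference of 0.52, and NPC2 and LIPA, which free cholesterol in the lysosome, with 0.40 and 0.37. SCD5, the second stearoyl-CoA desaturase, had a difference of -0.54, opposite in sign to SCD.

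ERLIN1 and ELOVL3 were the 2 listed genes that differed by more than 1.5-fold. ERLIN1, an endoplasmic reticulum protein that binds cholesterol and takes part in holding back SREBP, read -0.94 and -0.85 in the mimic against 0.11 and 0.08 in the control. Its difference was -0.99 ± 0.06, 1.98-fold lower (limma adjusted p = 0.0948, and 0.0123 with the variance trend). ELOVL3, an elongase of long saturated fatty acids, read -3.29 and -2.84 against -3.05 and -1.55 (-0.76 ± 0.59), with overlapping groups, and was well above background on 1 mimic and both control arrays.

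**Figure D4:**
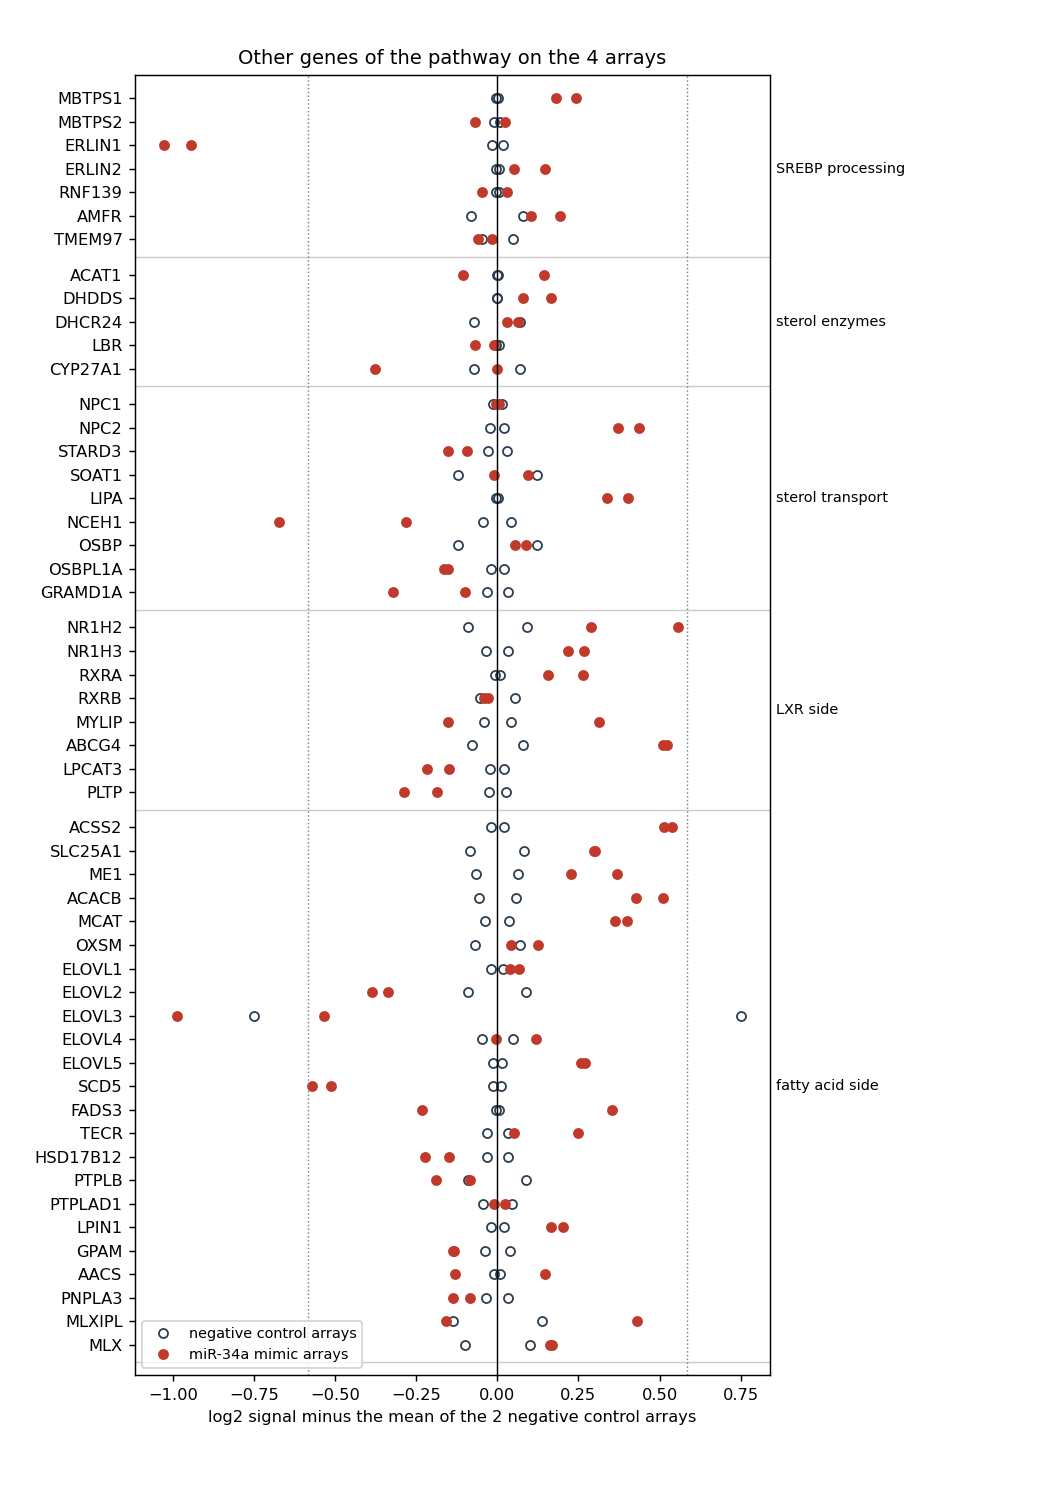
Each point is 1 array and gives the log2 signal of a gene minus the mean of its 2 negative control arrays (horizontal axis) for the 52 other genes of the pathway that were tested, grouped by role on the vertical axis, with dotted lines at 1.5-fold. Both mimic arrays of ERLIN1 lie beyond the left dotted line, and ELOVL3 has the widest spread between its 2 control arrays.

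Promoter letters, which the choice of genes did not use, were also counted. Windows from 250 bases before to 50 bases after the start site (RefSeq, GRCh38.p14) were held for 28 of the 33 genes. These genes had 38 windows, and a gene counted if any of its windows held the motif on either strand. The share of all genes beside each count was not matched for number of windows or base content, and no test was run. The NF-Y box CCAAT was present in 20 of the 28, against 39.7% of 27305 genes, and the Sp1 box GGGCGG in 27, against 48.3%. The SREBP element TCACNCCAC was present in 1, SREBF2 itself, against 1.39%, and the LXR element, a direct repeat with a spacer of 4 bases, in 0, against 0.0256%. A match is a description of letters in this window and not a site of binding, and no match says only that these letters are not there.

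The windows around the CCAAT box are shown for the genes that held it and whose unadjusted limma p was under 0.05, since NF-Y boxes are known to lie beside SREBP elements. PMVK and FDFT1 also had such a p but are not shown, because the PMVK window held no box and FDFT1 had no window. The SREBF2 element is shown as the only match of its kind. Letters run in the direction of the gene, the capitals mark the motif, and ATTGG is the CCAAT box on the opposite strand. The coordinates are those of GRCh38.p14.
SREBF2 (chr22:41832964-41832988, plus strand): acgcgccaTCACCCCACgcaccgct
TM7SF2 (chr11:65111790-65111810, plus strand): gagcgccgATTGGctggtgtg
SCD (chr10:100347039-100347059, plus strand): cccttcggCCAATgacgagcc
LSS (chr21:46228912-46228932, minus strand): gcgctctgATTGGttgcgtgg
INSIG1 (chr7:155297700-155297720, plus strand): ggcctcccATTGGttgcggcc
MSMO1 (chr4:165327627-165327647, plus strand): ctcgcaggCCAATaacgacag
HSD17B7 (chr1:162790702-162790722, plus strand): gtactctgATTGGtgacgggt
MVD (chr16:88663164-88663184, minus strand): cgcacgggCCAATcctgtggt
SC5DL (chr11:121292707-121292727, plus strand): ggtcgctgATTGGctggccgc
The boxes of TM7SF2, LSS, MSMO1 and MVD began 74, 150, 34 and 85 bases before the start site. Those of SCD, INSIG1 and SC5DL began 186, 170 and 56 bases before it, and that of HSD17B7 lay after it, from position 9. Of the genes whose box is shown, TM7SF2, SCD, LSS, INSIG1, MSMO1 and HSD17B7 were higher. MVD and SC5DL were lower, the latter with an uncertain level in the mimic. The difference was above 0 for 15 of the 20 genes with the box and for 6 of the 8 with a window and no box. Whether the box goes with the direction was not tested. The median log2 difference was 0.13 over the 20 genes with the box and 0.10 over the 8 with a window and no box.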

How the data were processed

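Gene expression was measured on Agilent 1-colour arrays, 2 per group. Per the file headers, the authors extracted each spot's intensity with Agilent Feature Extraction 10.7.3.1 (10.7 in the submitters' processing notes) after background subtraction, and deposited it without scaling between arrays. A deposited matrix of the same intensity values served as an alternative. It held 0 columns of no mapped sample. All 4 arrays shared 1 slide and 1 scan.

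Control and outlier-flagged spots (293 to 424 of 58717) were removed, replicate spots of a probe were averaged, and each array's 75th percentile was subtracted from its log2 processed signal. The 21474 probes detected above background on both arrays of either group were tested with limma 3.58.1 in R 4.3.3 (data.table, version 1.17.8), with Benjamini-Hochberg adjustment over all of them, and each gene is given by its tested probe with the highest mean signal. The fit was tested on simulated data. With 2 arrays against 2, an exact permutation test cannot go below 0.333. The number of arrays limits the precision.

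The genes, the lists, and the named-gene rule (all 33 genes with every probe that disagreed in sign or by over 1.5-fold, and other pathway genes past 1.5-fold or an adjusted p of 0.05) were chosen with earlier results of these data known. Other probes' values, and pathway genes called with the variance trend, were added after the values were seen. Names and hg19 positions follow the array's annotation, and sequences are from RefSeq. The alternatives were normexp (offset 50), quantile scaling, the percentile over detected probes, 2 other filters, the deposited matrix, a variance trend, the replicate number as a block, omission of each array in turn, the methods' t-test, and the median over a gene's probes.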

Additional observations from a re-analysis of the deposited data

How the results depend on the processing

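The median log2 difference over the 33 genes stayed between 0.09 and 0.14 under the 14 alternatives, and 23 to 25 genes were above 0. The count past an adjusted p of 0.05 was 3 with normexp (MVD, TM7SF2 and SCD, where 4.52% of all genes were called) and 3 with the variance trend, and 0 under the other alternatives that give a p; the cause was not tested. The methods' t-test called 8 genes at an unadjusted threshold (20.9% of all genes) and 0 after Benjamini-Hochberg. The replicate number as a block gave 0 calls (7 at an unadjusted p under 0.05, 19.6% of all genes). Deviations of same-numbered arrays had a correlation of -0.03 over 21453 probes, which shows no strong shared deviation. It cannot tell whether same-numbered samples were handled together, and the labels do not say.

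The count of genes lower by more than 1.5-fold, 1 in the main setting, was 0 with normexp, 0 with quantile scaling and 0 with probes detected on all 4 arrays, which drops SC5DL. Leaving out an array gave 0 to 1, with 0 without the first mimic array, and 0 adjusted calls each time. Small differences changed sign when an array was left out. Over the 4 omissions ACAT2 ranged from -0.33 to 0.10, positive without the second mimic array, CYP51A1 from -0.088 (the same omission) to 0.11, and ACLY from -0.094 (without the first mimic array) to 0.13, with -0.0095 without the first control array. Without the second control array ELOVL6 was 0.039 and SCAP -0.038, and their other extremes were -0.072 and 0.13. FASN was 0.012 with normexp. The regulators' median was -0.038 without the second control array and 0.13 without the first. With the median over probes, HSD17B7 was 0.15 and SREBF1 0.06. For dim probes such as SC5DL and ELOVL3, signal over background limits the value.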
